A study of Homo sapiens with 22 samples.

Results

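The 43 genes described here carry out DNA replication and mitosis, and were taken as 21 S phase members and 22 mitotic members of the 63677 annotated rows of each expression table. They were chosen by symbol for what they do, and each symbol matched 1 row of the tables. Total RNA was sequenced, after removal of ribosomal RNA and with strand kept, from 2 human neuroblastoma lines, SH-SY5Y and KELLY. Every SH-SY5Y culture carried a stable lentiviral shRNA selected with puromycin, the controls included. The shRNA was either a scrambled control or 1 of 2 constructs each against CASC15-003 or CASC15-004, transcripts of a long noncoding RNA gene (called sh003 and sh004 below, each with an sh1 and an sh2 construct). Monolayers were grown in 10% serum (day 0; 3 control, 3 sh003 and 2 sh004 libraries) or given retinoic acid for 7 days, the labels stating 10 mM (day 7; 2 control, 3 sh003 and 2 sh004 libraries). The labels give the serum at day 7 as 1% in one place and 10% in another. Spheres, grown in sphere-forming medium, gave 1 control, 2 sh003 and 2 sh004 libraries. KELLY cells, a line with many copies of MYCN, received a SOX9 siRNA or a control siRNA, with 1 library each. Nothing in the labels says that libraries of a group came from separately made lines, so the spread between them may be technical, and sh1 and sh2 libraries of a group differ by construct.

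A dividing cell licenses its replication origins in G1 by loading the MCM2-7 helicase with CDC6 and CDT1, and fires them in S phase through CDC45, the GINS complex and MCM10, while ribonucleotide reductase (RRM1 and RRM2) and thymidylate synthase (TYMS) supply nucleotides. The genes for these proteins are transcribed as cells enter S phase, largely through E2F factors. The genes of mitosis (cyclin B, the Aurora and Polo kinases, the spindle checkpoint, kinetochore proteins and mitotic kinesins) follow in G2. This is largely through the MuvB complex with MYBL2 (B-MYB) and then FOXM1, which act at CHR elements. CCAAT elements were counted beside them below. In neuroblastoma cells retinoic acid is known to slow division and bring on neuronal differentiation.

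The 2 kinds of member differed in their promoter letters, which the choice of members did not use. Promoters from RefSeq (GRCh38.p14; 250 bases before to 50 bases after the start) were available for 34 of the 43 members, 17 of each kind, and for 27305 genes in all. An E2F word (the word TTCCCGC, the word TTGGCGC, the word TTCGCGC or the word TTGCCGC, on either strand) stood in 13 of 17 S phase promoters (76.5%), 3 of 17 mitotic promoters (17.6%) and 13.1% of all promoters. A CHR word (TTTGAA or TTCGAA, on either strand) stood in 2 of 17 S phase promoters (11.8%), 11 of 17 mitotic promoters (64.7%) and 16.6% of all. The CCAAT word, on either strand, stood in 12 of 17 S phase promoters (70.6%), 14 of 17 mitotic promoters (82.4%) and 35.7% of all. Matches of an E2F and a CCAAT word overlapped in 1 member promoter, as did those of a CHR and a CCAAT word, and E2F and CHR words overlapped in 0. Median GC content was 67.7% in the S phase promoters, 61% in the mitotic ones and 58.3% in all. The part of GC content in these shares was not tested, and a match is a run of letters and not evidence of a bound site.

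The 120 bases before the start are printed for 3 S phase members with an E2F word in that stretch and 3 mitotic members with a CHR word there, as 9 of 17 S phase and 7 of 17 mitotic promoters had. They are the members with the largest drop at day 7 in sh003 cells among those and show what each kind of word looks like in place. RRM2, MCM10 and CDC45, whose drops were as large or larger, had 0 E2F words in their windows, and CDC20 and PLK1 did not pass the test there. Capitals mark E2F, CHR and CCAAT words. E2F1 lies at chr20:33686386-33686505 (minus strand), GINS2 at chr16:85688955-85689074 (minus strand), TYMS at chr18:657533-657652 (plus strand), CDC20 at chr1:43358861-43358980 (plus strand), PLK1 at chr16:23678769-23678888 (plus strand) and CCNB2 at chr15:59105026-59105145 (plus strand), all on GRCh38.p14.
E2F1: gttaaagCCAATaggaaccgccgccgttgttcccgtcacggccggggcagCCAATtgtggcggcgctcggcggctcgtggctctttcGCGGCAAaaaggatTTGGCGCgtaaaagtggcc
GINS2: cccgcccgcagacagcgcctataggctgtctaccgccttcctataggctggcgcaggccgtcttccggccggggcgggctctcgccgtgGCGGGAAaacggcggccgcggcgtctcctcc
TYMS: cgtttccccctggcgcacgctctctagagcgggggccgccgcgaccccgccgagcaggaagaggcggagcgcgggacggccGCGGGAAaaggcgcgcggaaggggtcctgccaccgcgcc
CDC20: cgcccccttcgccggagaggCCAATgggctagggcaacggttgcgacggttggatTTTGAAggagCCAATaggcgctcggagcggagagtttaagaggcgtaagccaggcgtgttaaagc
PLK1: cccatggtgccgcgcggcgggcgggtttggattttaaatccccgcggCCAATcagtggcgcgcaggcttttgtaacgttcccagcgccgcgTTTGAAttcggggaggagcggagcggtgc
CCNB2: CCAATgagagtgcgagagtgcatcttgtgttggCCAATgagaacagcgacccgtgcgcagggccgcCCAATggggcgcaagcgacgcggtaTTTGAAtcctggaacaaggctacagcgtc
The stretch of E2F1 holds 2 E2F words and 2 CCAAT words, and those of GINS2 and TYMS hold 1 E2F word each. CDC20 has 1 CHR word between its 2 CCAAT words, while PLK1 and CCNB2 carry their 1 CHR word nearer the start than all their CCAAT words.

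The 4 knockdown constructs, as the labels give their 21-base sequences, set the groups compared below.
sh003 sh1: ctagcactgacctccttcatt
sh003 sh2: ctttccatcagccaacaatat
sh004 sh1: caggctgttcccagggattta
sh004 sh2: taggaataccttacatccaat
Gene-level CASC15 (RPKM, reads scaled to exon length and to the library's assigned reads) was 1.52, 1.31 and 2.38 in the day 0 controls, 2.65, 1.95 and 1.57 in sh003 and 1.16 and 1.14 in sh004 at day 0. At day 7 it was 3.33 and 3.26 in controls, 2.08, 3.27 and 3.38 in sh003, and 1.31 and 1.48 in sh004. The gene row sums all CASC15 transcripts, so it does not check a knockdown of 1 of them.

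Libraries held 11884895 to 37938767 assigned reads in monolayers, 27769606 to 62075189 in spheres and 24003701 to 25471924 in KELLY. Of 10 neuroblast markers 9 or 10 were at RPKM 1 or above in every library, leukocyte markers at 0 or 1 of 5, and MYCN was at 0.08 to 8.09 RPKM in SH-SY5Y against 787 and 1052 in KELLY. Fibroblast markers (collagens, PDGFRA, PDGFRB and others) were at RPKM 1 or above for 3 to 7 of 8, with a summed level of 73.7 to 477 RPKM in monolayers. For 2 libraries, sh003 sh2 batch 1 of day 0 and sh003 sh1 batch 2 of day 7, the differentiation tag contradicts the title. The titles were used, and CYP26A1, which retinoic acid induces, was at 0.20 and 687 RPKM in them against at most 0.27 in all day 0 libraries. It reached 9.0 RPKM in sh004 sh2 at day 7, against 221 to 687 in every other day 7 library. In the sphere table most deposited values rest on a read total other than the library's own. Some of these totals equal that of another sphere library, and others, such as 25591795 and 45596110, match no library here. Sphere RPKM were therefore recomputed with each library's own total.

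All 43 members were detected, and all passed the filter, RPKM 1 in at least 2 libraries, in both SH-SY5Y tables. In sentences on monolayers, control values are given for batches 1, 2 and 3 at day 0 and batches 1 and 2 at day 7. Those of sh003 are given as sh1 batch 3, sh2 batch 1, sh2 batch 2 at day 0 and sh1 batch 2, sh2 batch 1, sh2 batch 2 at day 7, and those of sh004 as sh1 and sh2, both batch 2.

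By day 7 of retinoic acid, control cells had lower RNA of nearly every member. At day 7, 20 of 21 S phase members and 22 of 22 mitotic members were lower than at day 0, with median log2 changes of -0.73 and -1.19, against a median of 0.15 over the 19461 genes tested. No day 7 group was left without retinoic acid, so its part cannot be told apart from days in culture or any change of serum. In bulk RNA, fewer cells in cycle and less of these RNAs per cell cannot be told apart either. No member passed limma's test on log2(RPKM + 0.5) at a Benjamini-Hochberg adjusted p under 0.05, where 0.252% of genes were called lower. Of the members, 12 S phase and 16 mitotic ones had an unadjusted p under 0.05, and voom on recovered reads also called 0. The share of all genes at that unadjusted p is not given, here or below, and shares called are at the adjusted p. With batch, which the titles name, as a block in the same model, 12 S phase members fell and 0 mitotic members were called, although 21 of these 22 had an unadjusted p under 0.05, while 2.65% of all genes were called lower and 5.03% higher. The 12 were MCM2 to MCM7, MCM10, CDC6, CDT1, CDC45, RRM1 and RRM2. The count with the block rests on single libraries: it was 0 without either day 7 control, and 1, 6 and 7 without the day 0 control of batches 1, 2 and 3. It was 7 without sh003 sh1 at day 0, 33 without sh003 sh1 at day 7 and 27 without sh003 sh2 batch 2 at day 7, which enter through the shared error and batch terms, and without the block 5 members were called without sh003 sh1 at day 7.

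Among the licensing genes, MCM7, a helicase subunit, was at 289, 235 and 162 RPKM in the day 0 controls and 115 and 108 at day 7. It fell by 1.24 on the log2 scale (SE 0.20, limma with batch as a block, adjusted p = 0.00915). MCM2 went from 88.4, 76.3 and 46.4 to 41.4 and 35.9 RPKM (log2 change -1.11, SE 0.202, adjusted p = 0.0142). In both genes each day 7 control lay below all day 0 controls. MCM5 was at 43.8, 34.4 and 21.7 and then at 22.3 and 16.2 RPKM, so that its groups overlapped through the low batch 3 control (log2 change -1.08, SE 0.172, adjusted p = 0.00867 with the block). CDT1, the loading factor, was at 39.3, 30.7 and 18.6 and then at 22.2 and 13.7 RPKM, again with overlap (-1.02, SE 0.262, adjusted p = 0.0439 with the block). Batch 3 was sampled at day 0 only, and its control was the lowest of the 3 day 0 controls for 19 of 21 S phase and 15 of 22 mitotic members.

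Of the genes that fire origins and supply nucleotides, MCM10 was at 30.1, 29.3 and 19.9 RPKM in the day 0 controls and 13.4 and 15.8 at day 7 (log2 change -1.08, SE 0.228, limma adjusted p = 0.0245 with the block). RRM2, the regulated subunit of ribonucleotide reductase, was at 53.1, 64.8 and 44.8 RPKM and then at 19.9 and 33.4. Its log2 change was -1.25 with the block (SE 0.215, limma adjusted p = 0.0113), and -1.04 without it (adjusted p = 0.23). PCNA, the sliding clamp, was at 182, 218 and 175 and then at 99.2 and 157 RPKM (log2 change -0.61, SE 0.285). CCNE1, the cyclin that brings cells into S phase, did not follow the others: it was at 8.81, 9.95 and 10.3 RPKM at day 0, then 10.9 and 9.38 at day 7. E2F1 was at 68.7, 59.6 and 39.8 and then at 45.0 and 35.7 RPKM, with overlapping groups.

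The mitotic members had larger differences and larger errors. CENPF, a kinetochore protein, was at 78.2, 61.2 and 60.8 RPKM in the day 0 controls and 21.001 and 32.8 at day 7 (log2 change -1.41, SE 0.482, limma adjusted p = 0.0974 with the block). AURKA, the spindle pole kinase, was at 24.6, 25.9 and 19.0 and then at 4.67 and 10.2 RPKM (-1.80, SE 0.536, adjusted p = 0.0666 with the block). The lower day 7 value was that of batch 1 in both genes. CCNB1 was at 69.7, 77.8 and 60.5 and then at 18.0 and 31.9 RPKM, and CDK1, its kinase, at 23.6, 27.0 and 30.1 and then at 9.26 and 18.6. TOP2A, the topoisomerase that untangles sister chromatids, was at 88.2, 96.2 and 79.9 and then at 28.7 and 67.8 RPKM. MKI67 was at 77.3, 67.6 and 47.2 and then at 27.1 and 32.3 RPKM, and FOXM1 at 73.3, 61.1 and 41.1 and then at 25.5 and 31.0. All 22 mitotic members and 16 of 21 S phase members had day 7 controls below every day 0 control, as did 9.44% of all genes.

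**Figure D1:**
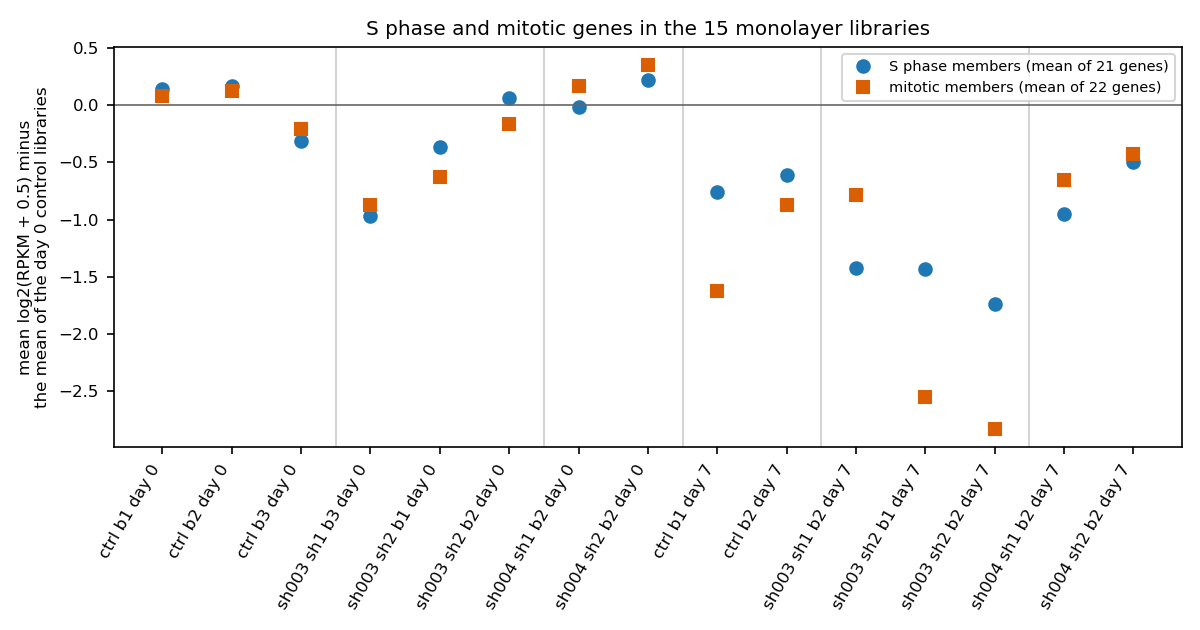
Mean log2(RPKM + 0.5) of the 21 S phase members (circles) and 22 mitotic members (squares) in each of the 15 monolayer libraries, as a difference from the mean of the 3 day 0 control libraries; 1 point is 1 library and vertical lines part the groups. The sh003 sh2 libraries at day 7 lie lowest, and in sh003 sh1 batch 2 at day 7 the mitotic mean lies 0.70 above the S phase mean before that difference is taken.

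In sh003 cells the members were lower at day 7 than at day 0 in all 43 cases, with medians of -1.13 for S phase and -1.51 for mitotic members (all genes, 0.05). Without a block, 8 members fell (limma, adjusted p under 0.05; 0.786% of genes were called lower): MCM10, CDC45, CDC6, MCM4, PCNA, RRM2, TYMS and CDK1. With batch as a block 36 fell, 19 S phase and 17 mitotic members, including those 8, against 5.63% of genes called lower. The 7 not called with the block were CCNE1, E2F2, CDC20, PLK1, CENPA, CENPE and KIF20A. Without the block the count was 0 without sh2 batch 1 at day 0, sh2 batch 2 at day 0 or sh2 batch 2 at day 7, and 1 without sh2 batch 1 at day 7. It was 16 without sh1 at day 0, 24 without sh1 at day 7, 5 and 4 without the day 0 controls of batches 1 and 2, and 3 without either sh004 library of day 0. With the block it was 10 without sh2 batch 2 at day 0, 19 without the day 0 library of sh2 batch 1 and 20 without its day 7 library. Leaving out both libraries with contradicting tags gave 19 without the block.

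RRM2 had the largest S phase change: 35.0, 47.0 and 87.6 RPKM in sh003 at day 0 and 22.9, 12.3 and 14.4 at day 7. It fell by 1.69 on the log2 scale (SE 0.332, limma adjusted p = 0.0252) and by 2.0 with the block (SE 0.196, adjusted p = 0.000667), and the groups did not overlap. MCM10 was at 11.5, 19.2 and 28.4 and then at 7.62, 7.24 and 5.54 RPKM (log2 change -1.39, adjusted p = 0.0332; -1.67 with the block). CDC45, the helicase activator, was at 14.8, 20.6 and 31.0 and then at 9.29, 7.95 and 6.87 RPKM (-1.35, SE 0.252, adjusted p = 0.0211). Every day 7 value of these genes lay below every day 0 value. E2F1 was at 23.6, 51.0 and 51.2 and then at 11.2, 23.6 and 13.0 RPKM (limma with the block -1.59, SE 0.32, adjusted p = 0.0133; without it adjusted p = 0.0979). GINS2, a subunit of the helicase complex, was at 7.92, 10.4 and 18.0 and then at 5.44, 4.78 and 4.45 RPKM (-1.48 with the block, SE 0.223, adjusted p = 0.00446). TYMS was at 38.8, 43.9 and 63.1 and then at 28.95, 17.7 and 13.9 RPKM (-1.28, SE 0.261, adjusted p = 0.0297).

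Other S phase members were lower at day 7 as well. PCNA was at 132, 121 and 176 RPKM and then at 66.0, 59.95 and 67.0 (log2 change -1.13, SE 0.255, limma adjusted p = 0.0453). MCM2 was at 29.7, 55.0 and 63.1 and then at 22.3, 26.1 and 15.7 RPKM, and MCM5 at 11.5, 27.4 and 29.1 and then at 10.2, 14.4 and 8.91. Both were called with the block only. CCNE1 was at 8.12, 8.74 and 11.3 and then at 5.23, 6.62 and 4.60 RPKM, and was not called in either fit (-0.72, SE 0.256, adjusted p = 0.152; 0.111 with the block).

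Mitotic members of sh003 varied more at day 7, with 1 library holding the high values. UBE2C, the ubiquitin-conjugating enzyme of the anaphase-promoting complex, was at 42.9, 43.6 and 57.8 RPKM at day 0, then 39.8, 8.14 and 6.43 at day 7 (limma with the block -2.09, SE 0.524, adjusted p = 0.0283). AURKB was at 18.4, 33.8 and 37.9 and then at 21.3, 7.49 and 4.24 RPKM (-1.96, SE 0.449, adjusted p = 0.0205 with the block). CCNB2 was at 22.9, 21.3 and 36.0 and then at 25.4, 4.02 and 4.60 RPKM (-1.86, SE 0.509, adjusted p = 0.0379 with the block). In each the sh1 batch 2 library at day 7 held the high value, near or within the day 0 range. The same held for CCNA2, at 21.5, 29.6 and 37.5 and then at 23.1, 6.08 and 6.11 RPKM, and for CCNB1, at 45.6, 45.0 and 60.7 and then at 46.0, 10.8 and 7.41. MYBL2, the B-MYB factor, was at 58.0, 117 and 162 and then at 53.2, 42.4 and 21.1 RPKM, without overlap (-1.83, SE 0.32, adjusted p = 0.0077 with the block). CDK1 was at 24.2, 16.8 and 26.0 and then at 12.6, 4.25 and 5.56 RPKM, and was the 1 mitotic member called without a block (-1.64, SE 0.369, adjusted p = 0.0446).

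TOP2A in sh003 was at 49.9, 46.2 and 72.9 RPKM at day 0, then 51.1, 14.6 and 12.9 at day 7. MKI67 was at 22.02, 44.8 and 57.3 and then at 34.0, 14.2 and 8.11, AURKA at 12.2, 14.2 and 20.5 and then at 15.6, 2.84 and 2.81, and FOXM1 at 20.9, 45.4 and 56.6 and then at 29.6, 13.0 and 7.998 RPKM. The groups of all 4 overlapped through sh1 batch 2. Of S phase members 17 of 21 had no overlap, of mitotic members 8 of 22, and of all genes 8.7% were lower without overlap. The sh1 construct was sampled at day 0 in batch 3 and at day 7 in batch 2, so day and batch cannot be told apart within sh1, and the differentiation tag of its day 7 library contradicts the title. Without this library and the other with a contradicting tag, the mitotic median was -2.13.

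**Figure D2:**
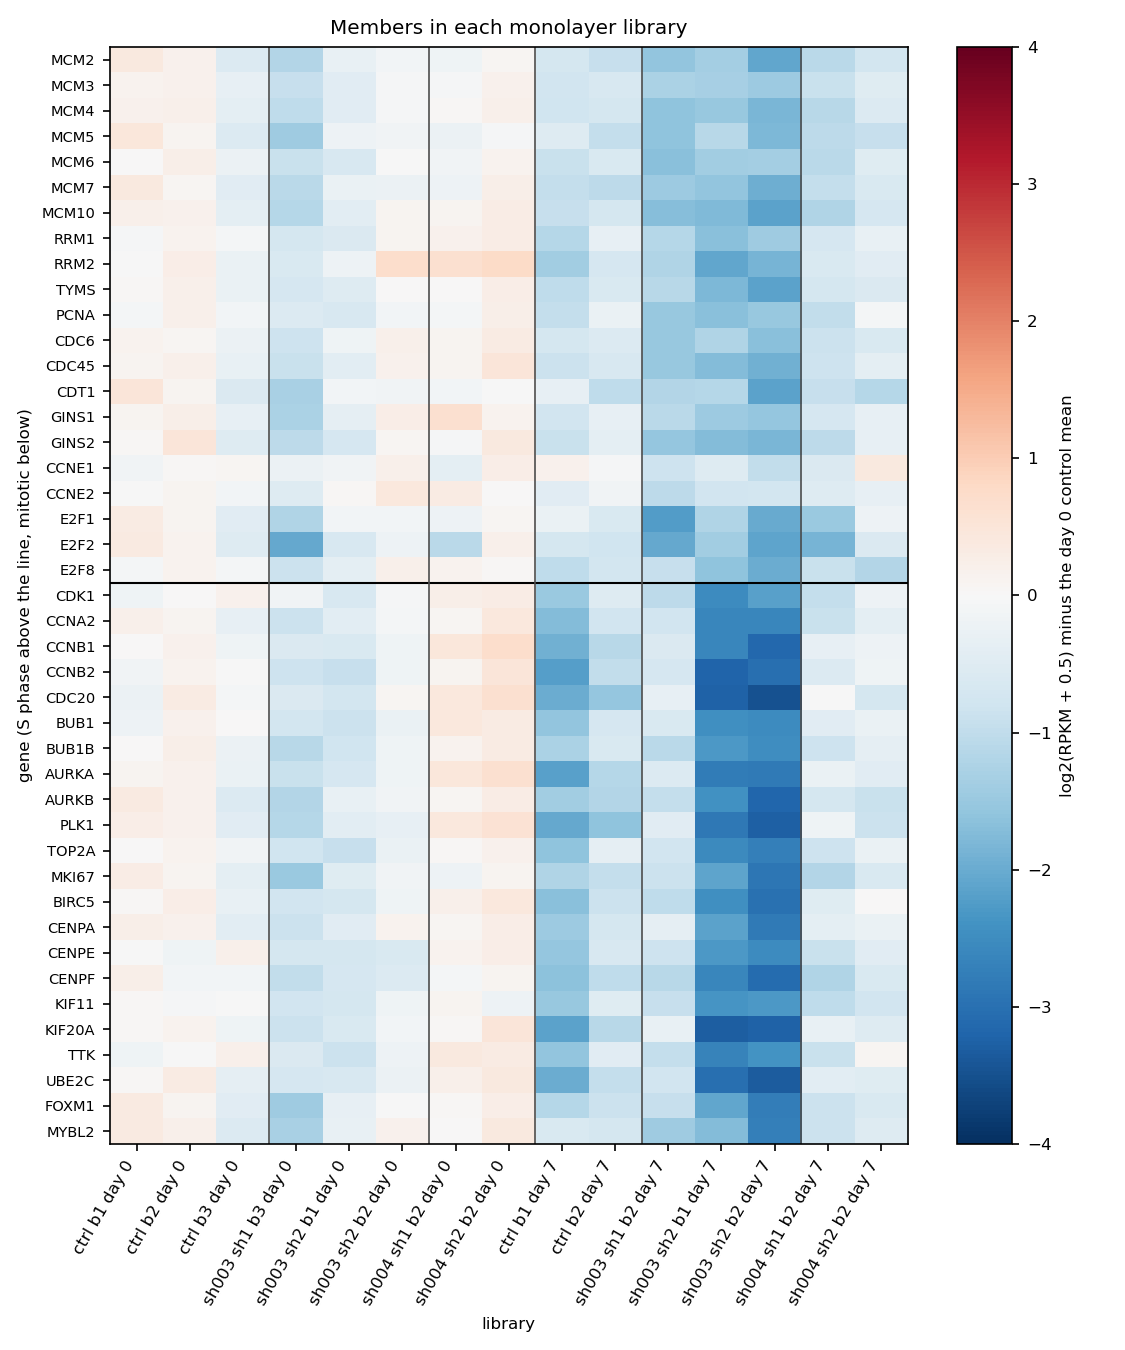
Log2(RPKM + 0.5) of each of the 43 members (rows) in each of the 15 monolayer libraries (columns), as a difference from the day 0 control mean, with S phase members above the line and mitotic members below. Differences run from -3.48 to 0.76, and the column of sh003 sh1 batch 2 at day 7 is paler over the mitotic rows than those of sh003 sh2.

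In sh004 cells all 43 members were lower at day 7, with a median of -0.85 for S phase and -0.84 for mitotic members (all genes, 0.02), and 0 were called by limma (0.128% of genes called lower) or by voom. An unadjusted p under 0.05 was found for 12 S phase and 0 mitotic members. With batch as a block, RRM2, MCM10, CDC6, MCM4 and MCM5 fell, against 0.683% of genes called lower, and 0 mitotic members were called, with 3 of them at an unadjusted p under 0.05. The count with the block was 0 without either day 0 library or without sh1 at day 7, and 14 without sh2 at day 7. It was 1 without any 1 of the batch 1 and batch 2 controls of either day, sh003 sh1 at day 7 or sh003 sh2 batch 1 at day 0, and 2 without sh003 sh2 batch 1 at day 7. RRM2 was at 84.2 and 90.9 RPKM at day 0, then 34.7 and 38.9 at day 7 (log2 change -1.24, SE 0.224, limma adjusted p = 0.0239 with the block). MCM10 was at 28.2 and 32.3 and then at 11.0 and 16.3 RPKM (-1.14, SE 0.238, adjusted p = 0.0405). CDC6, the origin licensing factor, was at 32.8 and 38.5 and then at 16.6 and 19.9 RPKM, MCM4 at 60.1 and 67.6 and then at 27.2 and 40.2, and MCM5 at 27.2 and 31.0 and then at 15.2 and 16.6. Day 7 lay below day 0 without overlap in 18 of 21 S phase and 22 of 22 mitotic members, as in 18.1% of all genes.

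BUB1B, a checkpoint kinase, was at 30.8 and 34.9 RPKM at day 0, then 15.3 and 21.3 at day 7 (-0.84, SE 0.363, adjusted p = 0.288 with the block). The other members given in every comparison follow for sh004. MCM2 was at 59.96 and 71.4 RPKM at day 0, then 31.6 and 40.8 at day 7, PCNA at 182 and 226 and then at 96.3 and 182, and E2F1 at 47.1 and 57.7 and then at 19.3 and 47.8. CCNE1 was at 7.32 and 11.8 and then at 6.26 and 12.9 RPKM. In sh004 sh2, whose CYP26A1 was lowest, PCNA, E2F1 and CCNE1 at day 7 lay within or near the day 0 values. CDK1 was at 31.6 and 32.8 and then at 13.5 and 22.9 RPKM, CCNB1 at 94.4 and 113 and then at 54.5 and 60.5, and TOP2A at 89.9 and 98.6 and then at 49.1 and 73.6. MKI67 was at 54.4 and 68.3 and then at 27.5 and 41.2 RPKM, AURKA at 31.9 and 36.4 and then at 18.9 and 16.5, and FOXM1 at 58.7 and 69.0 and then at 31.2 and 37.4.

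Day 7 and day 0 can also be set side by side within a batch and construct, in 6 pairs. Of the 43 members, 42 were lower at day 7 in all 6, the exception being CCNE1. The share of all genes lower in all 6 was not counted. Most pairs are of batch 2, and the sh003 sh2 batch 1 pair holds a day 0 library whose tag contradicts its title. Median S phase and mitotic differences were -0.95 and -1.69 in control batch 1, and -0.85 and -0.94 in control batch 2. For sh003 sh2 they were -1.06 and -1.83 in batch 1 and -1.89 and -2.75 in batch 2. For sh004 they were -0.92 and -0.87 with sh1 and -0.77 and -0.73 with sh2. The mitotic median was thus lower than the S phase median in both control pairs and both sh003 sh2 pairs, and slightly higher in both sh004 pairs. Whether the day 7 change differed by knockdown was tested as an interaction. No member passed limma's test or voom for sh003 minus control or sh004 minus control (0% of genes called lower in either; 0 members with an unadjusted p under 0.05 in either), and 0 were called with the block, where 0.0103% of genes were called higher for sh004. For sh003 minus control the smallest p were those of CCNE1 (log2 difference of the changes -0.79, SE 0.384) and CDC6 (-0.58, SE 0.351) in S phase, and of MYBL2 (-0.83, SE 0.615) and CDK1 (-0.64, SE 0.554) in mitosis. For sh004 minus control they were those of CDC6 (-0.33), CCNE2 (-0.27), CCNB2 (0.94, SE 0.936) and BIRC5 (0.70, SE 0.708).

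**Figure D3:**
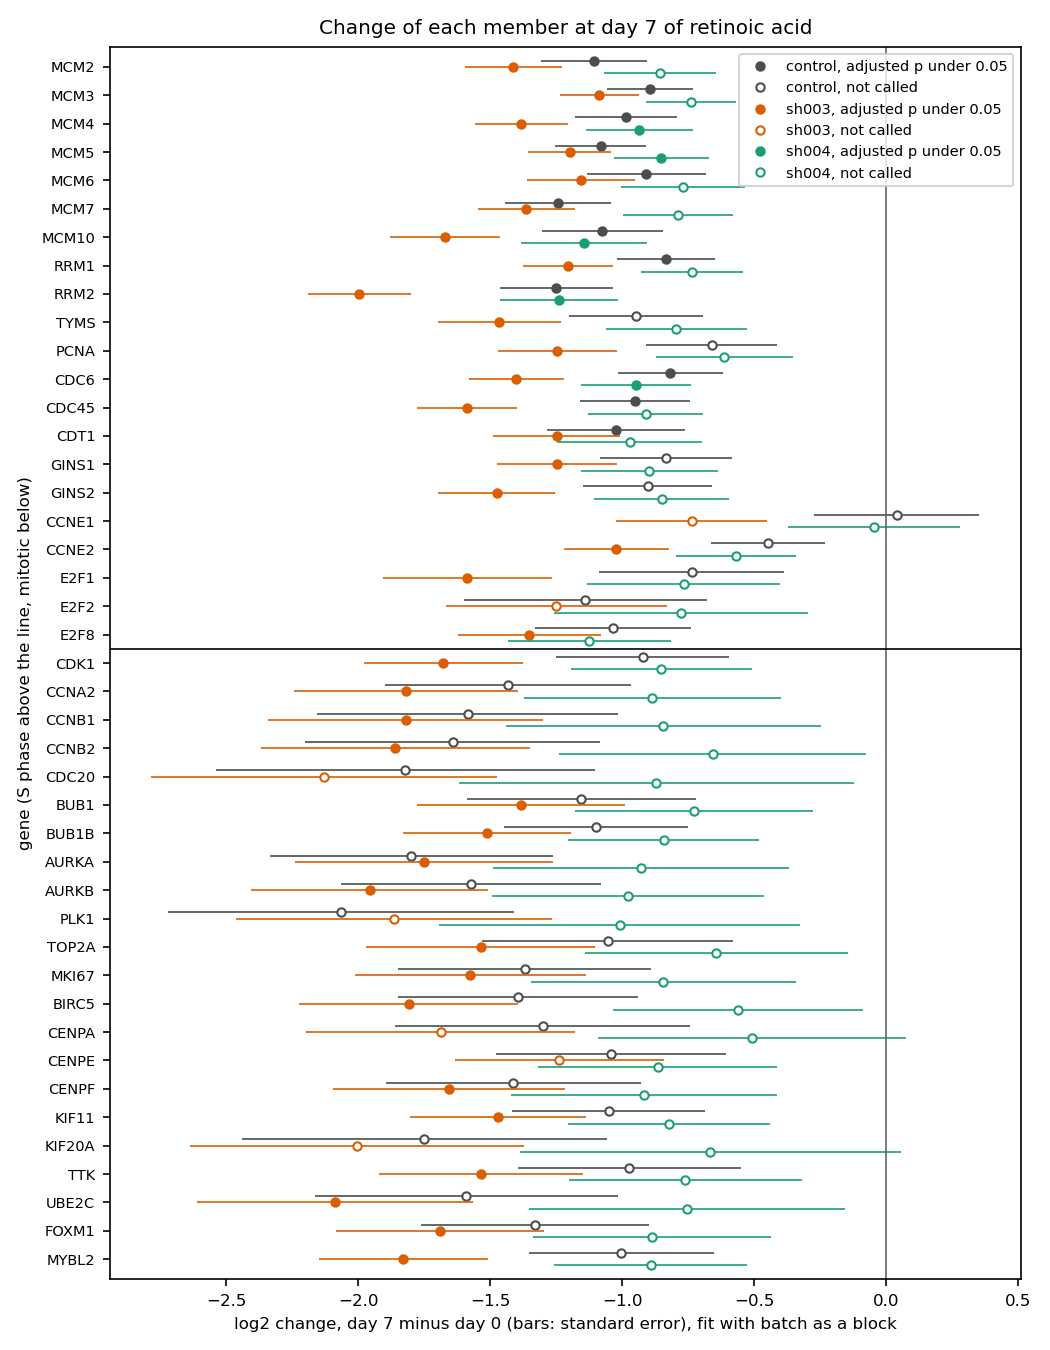
Log2 change of each member from day 0 to day 7 in control, sh003 and sh004 monolayers, from the limma fit with batch as a block; bars are standard errors, and filled points have an adjusted p under 0.05. Filled points number 12 in control, 36 in sh003 and 5 in sh004, and all of them lie left of 0.

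Other genes of the same pathways were counted at day 7. In sh003 with the block, where 5.63% of all genes were called lower, limma called lower 18 of 19 polymerase, clamp loader and lagging strand genes (median -0.88), 8 of 9 genes of nucleotide supply and chromatin copying (-1.06) and 9 of 15 other origin genes (-0.81). FEN1, which trims Okazaki fragments, fell by 1.33 (SE 0.166), and ORC1, a subunit of the origin recognition complex, fell by 1.36 (SE 0.186). Of the mitotic genes outside the members, 14 of 20 kinetochore and spindle genes (-1.49), 8 of 11 checkpoint, anaphase and cytokinesis genes (-1.34) and 7 of 7 condensin subunits (-1.04) were called lower. Fewer were called among E2F, pocket protein and MuvB genes (3 of 14, median -0.30), replication-dependent histones (8 of 27 tested of 38) and CDK inhibitors and D cyclins (2 of 7). Of 20 reference genes, 3 were called lower, with a median of -0.15. In control cells with the block (2.65% of all genes) the counts were 7 of 19, 3 of 9 and 4 of 15 for the replication lists and 1 of 20, 0 of 11 and 2 of 7 for the mitotic ones, and 4 of 20 for the reference genes. In sh004 with the block (0.683% of all genes) they were 1 of 15 origin genes, 0 of 19 and 0 of 9 for the other replication lists, 0 of 20, 0 of 11 and 0 of 7 for the mitotic ones and 0 of 20 reference genes. The histones are made in large part without a poly(A) tail, and this library type can hold them. Their summed level differed by batch, at 646, 130 and 224 RPKM in the day 0 controls of batches 1, 2 and 3. The part of batch in their counts was not tested.

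Knockdown was then set against control on the same day. At day 0, all 43 members were lower in sh003 than in control, with medians of -0.46 (S phase) and -0.55 (mitotic), while the median of all genes was -0.06. None passed limma's test (0% of genes called lower) or voom, and 0 members had an unadjusted p under 0.05. With batch as a block 0 were called (0.0514% of genes called lower) and 11 S phase and 1 mitotic member had an unadjusted p under 0.05. The smallest p were those of MCM3 (log2 difference -0.47, SE 0.215, adjusted p = 0.87), MCM6 (-0.51, SE 0.239), BUB1B (-0.69, SE 0.364) and CENPF (-0.74, SE 0.409). MCM3 was at 132, 133 and 95.4 RPKM in controls and 63.1, 87.6 and 114 in sh003, and CENPF at 78.2, 61.2 and 60.8 against 33.0, 41.3 and 44.7. The groups overlapped for all 21 S phase members, and 7 of 22 mitotic members were lower without overlap, against 5.12% of all genes. Against the control of the same batch, median S phase and mitotic differences were -0.57 and -0.69 in sh2 batch 1, -0.22 and -0.32 in sh2 batch 2, and -0.63 and -0.69 in sh1 batch 3, so each library had the same sign.

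At day 7, all 43 members were again lower in sh003, with medians of -0.84 and -0.87 (all genes, -0.09). None was called by limma (0% of genes called lower) or voom, with 13 S phase and 3 mitotic members at an unadjusted p under 0.05. With the block it was 0 called, and 21 and 7 at an unadjusted p under 0.05. CDC45 had the smallest S phase p: 15.2 and 17.4 RPKM in controls and 9.29, 7.95 and 6.87 in sh003 (log2 difference -0.98, SE 0.282, adjusted p = 0.566; 0.109 with the block). PCNA was at 99.2 and 157 against 66.0, 59.95 and 67.0 RPKM (-0.95, SE 0.285), MYBL2 at 93.5 and 86.8 against 53.2, 42.4 and 21.1 (-1.30, SE 0.458, adjusted p = 0.585), and BUB1B at 11.2 and 18.1 against 12.9, 5.23 and 4.52 (-1.02, SE 0.407). With the block, leaving out the sh003 sh1 library at day 7 gave 4 called members, and leaving out either sh004 library at day 7 gave 10.

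S phase and mitotic members parted between constructs at day 7. Of S phase members 19 of 21 were lower in sh003 without overlap, and of mitotic members 1 of 22, against 13.6% of all genes. That 1 was MYBL2, which was placed with the mitotic members for what its protein does. In sh003 sh1 batch 2 MYBL2 was below the control of the batch by 0.70 on the log2 scale (-0.70). In sh003 sh1 batch 2, all 21 S phase members were below the batch 2 control (median -0.81), while 10 of 22 mitotic members were below it (median 0.04). In sh003 sh2, all 43 were below the control of the same batch, with medians of -0.68 and -0.94 in batch 1 and -1.17 and -1.94 in batch 2. As an example chosen after the values were seen, E2F1 was at 11.2 RPKM in sh1 and CDC20, the activator of the anaphase-promoting complex, at 43.3, where the batch 2 control had 35.7 and 18.3. In sh2 of the same batch they were at 13.0 and 4.40 RPKM. The mean log2 level of mitotic members minus that of S phase members was 0.70 in sh003 sh1 at day 7 and -1.07 and -1.04 in sh003 sh2, against -0.81 and -0.21 in the controls and 0.36 and 0.13 in sh004. At day 7 sh003 sh1 is 1 library, so the difference between constructs was not tested.

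Marker lists of cell type moved with both day and knockdown. Summed fibroblast markers went from 110 to 272 RPKM between day 0 and day 7 in control batch 1, from 73.7 to 180 in control batch 2, from 215 to 287 and 187 to 306 in sh003 sh2 batches 1 and 2, from 93.4 to 296 in sh004 sh1 and from 89.5 to 86.3 in sh004 sh2. Summed neuroblast markers went from 1748 to 1331 and 1992 to 1369 RPKM in the control batches, 1284 to 1034 and 1173 to 914 in sh003 sh2, 1563 to 666 in sh004 sh1 and 1331 to 2958 in sh004 sh2. Fibroblast sums were thus higher and neuroblast sums lower at day 7 in 5 of 6 pairs, sh004 sh2 being the exception. Against control, 6 of 6 fibroblast markers tested were higher in sh003 on both days, with medians of 0.99 at day 0 and 0.94 at day 7. Their summed level over libraries was 73.7 to 359 RPKM in day 0 controls, 187 to 388 in sh003 and 89.5 to 93.4 in sh004, and 180 to 272, 287 to 477 and 86.3 to 296 at day 7. Against sh004 6 of 6 were higher on both days (medians 1.35 and 1.28), and at most 1 of the 8 was at 0 in a library. The part of both lists in the member differences was not tested.

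With sh004 at day 0, the S phase median against control was 0.10 and the mitotic median 0.26, and with the block they were -0.16 and -0.18. No member was called by limma (0% called lower, 0% higher) or voom, with or without the block, and 0 had an unadjusted p under 0.05. RRM2 was at 84.2 and 90.9 RPKM against 53.1, 64.8 and 44.8 in controls (log2 difference 0.70, SE 0.371, adjusted p = 1; 0.19 with the block), and CDC45 at 30.0 and 39.3 against 29.8, 31.9 and 22.3 (0.31). CCNB1 was at 94.4 and 113 RPKM against 69.7, 77.8 and 60.5 (0.58, SE 0.569), and AURKA at 31.9 and 36.4 against 24.6, 25.9 and 19.0 (0.56, SE 0.584). RRM1 and RRM2 and 7 mitotic members were higher without overlap, against 7.66% of all genes. Against the batch 2 control alone, the medians were -0.23 and -0.04 with sh1 and 0.00 and 0.22 with sh2.

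At day 7 the sh004 medians were -0.06 and 0.61, and -0.11 and 0.37 with the block. Again 0 members were called by limma (0% of genes called; with the block 0.0514% called lower) or voom, and 0 had an unadjusted p under 0.05. AURKA was at 18.9 and 16.5 RPKM against 4.67 and 10.2 in controls (log2 difference 1.28, SE 0.639, adjusted p = 0.679), and CCNB1 at 54.5 and 60.5 against 18.0 and 31.9 (1.24, SE 0.623). In S phase RRM2 (0.50, SE 0.406) and E2F1 (-0.39, SE 0.499) had the smallest p. Of mitotic members 12 of 22 were higher without overlap, and of S phase members 1 of 21, against 10.8% of all genes. Against the batch 2 control, the mitotic median was 0.13 with sh1 and 0.41 with sh2.

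The difference between the knockdowns was tested directly, in the same fit, so that control libraries enter its errors and, with the block, its batch terms. At day 0 all 43 members were lower in sh003 than in sh004 (medians -0.52 and -0.80; 0 called by limma, where 0% of genes were called lower, and 0 by voom; 4 S phase and 1 mitotic member at an unadjusted p under 0.05). The smallest p were those of CDC45 (-0.69, SE 0.282), RRM1 (-0.64, SE 0.282), BUB1B (-0.93, SE 0.407) and CENPE (-0.87, SE 0.426), and 5 S phase and 18 mitotic members had no overlap (13.7% of all genes). At day 7 the medians were -0.83 and -1.45, and 0 members were called (0.00514% of genes called lower and 0.0154% higher). At an unadjusted p under 0.05, a looser threshold than that of these shares, were 15 S phase and 21 mitotic members. CDC45 was at 9.29, 7.95 and 6.87 RPKM in sh003 and 15.4 and 21.1 in sh004 (log2 difference -1.13, SE 0.282, limma adjusted p = 0.22; 0.0525 with the block). BIRC5, the survivin of the chromosomal passenger complex, was at 10.1, 3.36 and 2.20 against 14.6 and 20.7 RPKM (-1.90, SE 0.477, adjusted p = 0.223). PCNA (-1.04, SE 0.285) and BUB1B (-1.35, SE 0.407) followed. Without overlap were 16 of 21 S phase and 12 of 22 mitotic members, against 12.9% of all genes. Leaving out the sh003 sh1 library at day 7 gave 11 called members without the block and 25 with it, and leaving out sh004 sh1 gave 1 and 16. All sh004 libraries came from batch 2, while sh003 came from 3 batches. With the block the day 0 medians were -0.28 and -0.39, and in batch 2 alone the S phase median was -0.07.

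In spheres the pattern turned on the knockdown. The mitotic members were higher in sh003 than in sh004 spheres, with a median log2 difference of 1.08, and the S phase median was 0.35 (all genes, 0.13). Of mitotic members 15 of 22 rose (limma, adjusted p under 0.05) and 0 fell, and of S phase members 5 rose (MCM10, RRM1, RRM2, MCM4 and E2F8) and GINS2 fell. Since 23.1% of all 14711 genes were called higher and 16.8% lower, the S phase count is near the background. The 7 mitotic members not called were CCNB1, CCNB2, CDC20, AURKB, BIRC5, UBE2C and MYBL2. With the values as deposited, the medians were 0.51 and -0.37 and 0 were called, as also with no filter on low values. The count was 0 without sh004 sh2 and 11 without sh004 sh1, in fits where the other sh004 sphere had to stand for its group and was taken to vary like the rest.

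In the following, sphere values are given in the order control, sh003 sh1, sh003 sh2, sh004 sh1, sh004 sh2. TOP2A was at 39.4, 56.4, 78.3, 14.5 and 18.9 RPKM, with a log2 difference between knockdowns of 1.97 (SE 0.242, limma adjusted p = 0.00867). KIF20A, a kinesin of cytokinesis, was at 11.9, 19.7, 20.99, 5.15 and 4.99 RPKM (1.90, SE 0.186, adjusted p = 0.00867). CENPF was at 25.8, 34.7, 42.4, 8.05 and 12.9 RPKM (1.86, SE 0.267, adjusted p = 0.00885). In these 3 the control lay between the knockdowns. BUB1B was at 14.6, 14.96, 17.2, 3.76 and 5.60 RPKM (1.70, SE 0.243, adjusted p = 0.00875), CENPE, the kinetochore motor, at 4.198, 5.39, 8.06, 1.70 and 1.86 (1.64, SE 0.262) and BUB1 at 8.75, 9.44, 13.1, 3.48 and 3.96 (1.46, SE 0.234). For BUB1B the control was near sh003 and far above sh004.

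CDK1 was at 19.3, 26.7, 23.1, 12.6 and 13.0 RPKM (0.93, SE 0.187, adjusted p = 0.0141), MKI67 at 15.9, 17.6, 21.3, 5.08 and 10.4 (1.35, SE 0.337, adjusted p = 0.0248), AURKA at 13.3, 15.7, 16.7, 7.20 and 8.10 (1.04, SE 0.189, adjusted p = 0.0114) and FOXM1 at 19.3, 25.5, 21.01, 7.83 and 12.0 (1.22, SE 0.255, adjusted p = 0.0156), each by limma. CCNB1 was at 59.2, 54.2, 56.3, 31.9 and 42.8 RPKM (0.57, SE 0.209, adjusted p = 0.0705). BIRC5 went the other way, at 23.8, 14.2, 13.0, 15.6 and 26.3 RPKM (-0.56, SE 0.275, adjusted p = 0.148), as did MYBL2, at 82.6, 56.2, 45.0, 64.6 and 95.3 (-0.64, SE 0.249, adjusted p = 0.0849).

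The S phase members split. RRM1 was at 27.1, 33.3, 26.4, 10.8 and 10.9 RPKM (1.41, SE 0.199, limma adjusted p = 0.00875), RRM2 at 21.2, 25.5, 23.0, 11.8 and 11.0 (1.05, SE 0.184, adjusted p = 0.0106) and E2F8, a repressor E2F, at 1.75, 2.75, 2.0006, 0.77 and 0.58 (1.28, SE 0.30, adjusted p = 0.0206). MCM10 was at 12.0, 13.7, 8.97, 4.69 and 6.81 RPKM (0.91, SE 0.287, adjusted p = 0.0467) and MCM4 at 23.0, 28.6, 19.6, 12.5 and 12.7 (0.88, SE 0.233, adjusted p = 0.0289). In all 5 genes both sh003 spheres lay above both sh004 spheres. GINS2 fell, at 17.0, 8.30, 5.89, 11.1 and 17.6 RPKM (-0.95, SE 0.29, adjusted p = 0.0434). MCM2 was at 36.3, 34.6, 20.6, 24.2 and 25.2 RPKM, MCM5 at 15.9, 13.6, 6.64, 12.1 and 15.4, PCNA at 178, 173, 101, 144 and 174, E2F1 at 52.4, 33.6, 22.2, 38.5 and 43.1, and CCNE1 at 10.6, 11.2, 9.18, 7.64 and 6.58. In sh003 sh2 the mean log2 level of mitotic members was 0.70 above that of S phase members, against 0.11 in sh003 sh1, -0.03 in the control and -0.29 and -0.16 in sh004. Lower without overlap in sh003 were 3 S phase and 2 mitotic members (33% of all genes), and higher 11 and 17 (42.9%).

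**Figure D4:**
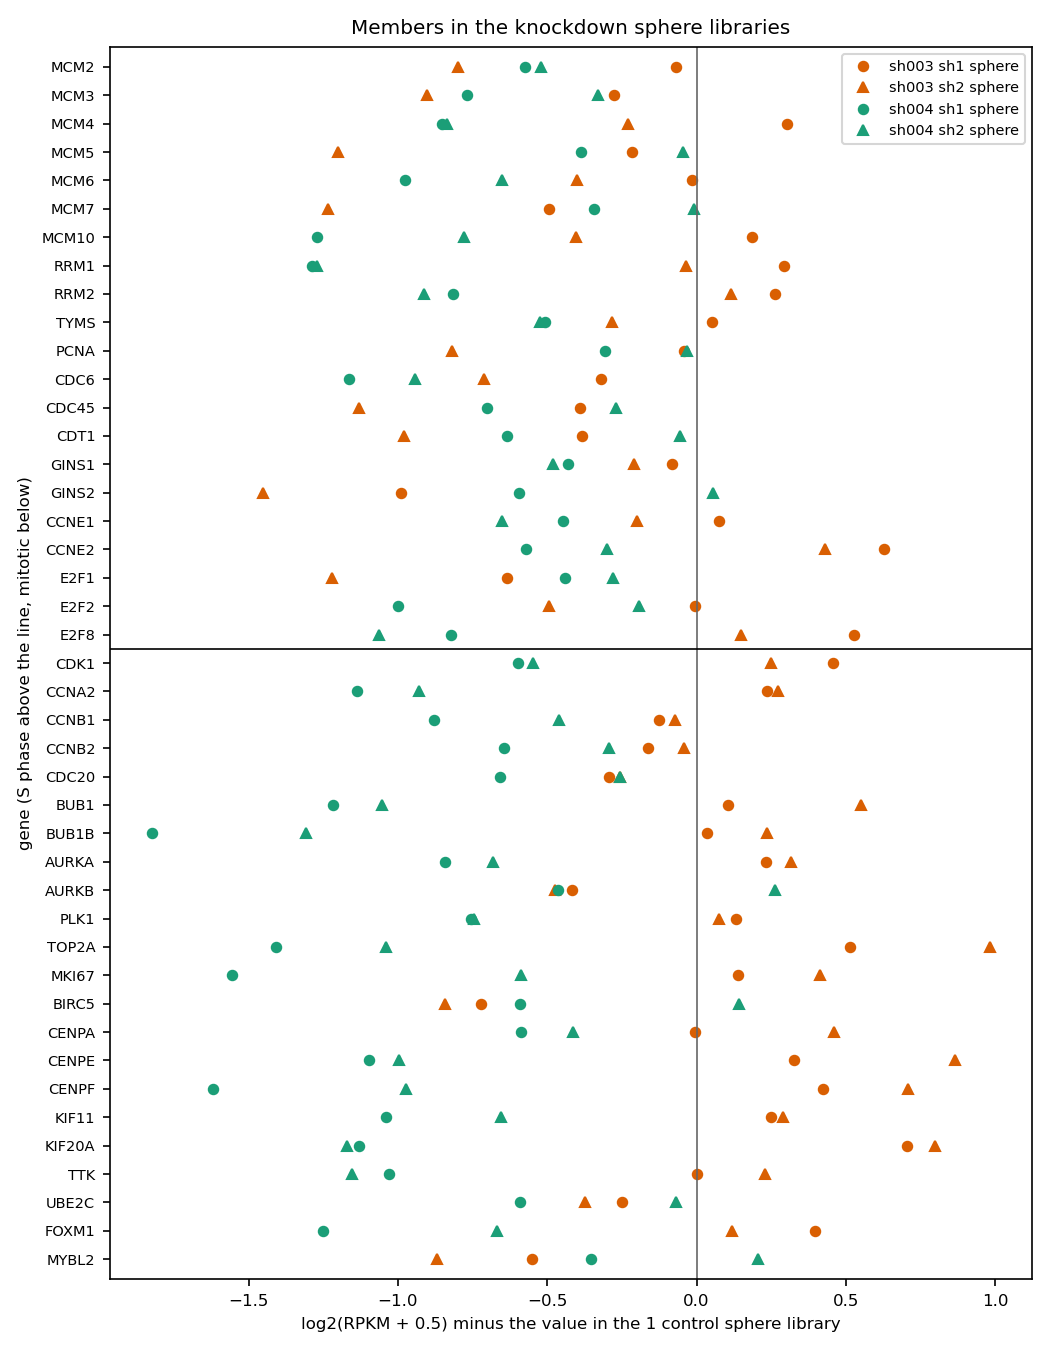
Log2(RPKM + 0.5) of each member in the 4 knockdown sphere libraries, as a difference from the 1 control sphere library (vertical line at 0), with S phase members above the line and mitotic members below. For TOP2A, KIF20A and CENPF the sh003 libraries lie right of 0 and the sh004 libraries left of it, and for GINS2 the sh003 libraries lie furthest left.

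The sphere difference moved with gene length over all genes. Its median was -0.41 for the 3210 genes with under 2 kb of summed exon, -0.04 for 5704 genes of 2 to 5 kb and 0.54 for 5797 genes of 5 kb and over. Members gave 0.19 (4 genes), 0.56 (30 genes) and 1.35 (9 genes), so that within each length class they lay above all genes. In the middle class, 14 mitotic members had a median of 0.98 and 16 S phase members 0.35. Spearman's rho between length and difference was 0.51 over 43 members and 0.39 over all genes, as a description over genes that share the same 4 libraries. The part of length in the member differences was not tested. The other lists differed too: limma called higher 7 of 7 condensin subunits (median 1.38), 12 of 20 kinetochore and spindle genes and 10 of 14 E2F, pocket protein and MuvB genes, RB1 among them (1.82, SE 0.218), and 5 of 14 histones lower. Of 5 fibroblast markers tested 4 were higher in sh003 spheres (median 1.21), while their summed level was 81.0 and 110 RPKM in sh003, 113 and 92.0 in sh004 and 103 in the control, and their part was not tested. Of 20 reference genes 4 were called higher and 4 lower. Length mattered in monolayers as well: rho over all genes ran from -0.23 (sh003 against sh004, day 7) to 0.25 (sh004 against control, day 7). For day 7 against day 0 in control cells, medians of all genes were 0.36, 0.01 and 0.09 in the 3 length classes, shortest first. Members had -1.27, -0.91 and -0.98. The part of length was not tested there either.

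Against the 1 control sphere, 0 members were called for either knockdown (limma; 0% of genes called lower and 0% higher for sh003, 0.0068% and 0.122% for sh004; voom also 0). For sh004 all 43 members were lower (medians -0.55 and -0.80), with 7 S phase and 15 mitotic members at an unadjusted p under 0.05. RRM1 (log2 difference -1.28, SE 0.244, adjusted p = 0.105), CDC6 (-1.05, SE 0.274, adjusted p = 0.131), BUB1B (-1.57, SE 0.297, adjusted p = 0.105) and KIF20A (-1.15, SE 0.228, adjusted p = 0.105) had the smallest p. For sh003 the S phase median was -0.25, with 16 of 21 lower, and the mitotic median 0.24, with 15 of 22 higher. An unadjusted p under 0.05 was found for 3 S phase and 2 mitotic members: GINS2 (-1.22, SE 0.356, adjusted p = 0.203), E2F1 (-0.93, SE 0.298, adjusted p = 0.212), MCM7 (-0.87, SE 0.353), KIF20A (0.75, SE 0.228, adjusted p = 0.206) and TOP2A (0.75, SE 0.296, adjusted p = 0.249). As deposited, the sh003 medians were -0.92 and -0.38. In sh004 spheres 20 S phase and 19 mitotic members lay below the control without overlap (49.4% of all genes), and in sh003 13 and 7 (41.5%). Above the control without overlap were 3 S phase and 14 mitotic members in sh003 (40.5% of all genes), TOP2A, CENPF, KIF20A and CDK1 among them. Both comparisons share that 1 control library, whose level sets the sign of each value.

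In KELLY cells, which carried no shRNA contrast, SOX9 was at 5.61 RPKM with the control siRNA and 0.97 with its own siRNA (ratio 0.174). With 1 library each, differences have no replicate check, and the intervals beside ratios (95%, exact Clopper-Pearson) cover counting error only. S phase members were higher with SOX9 siRNA in 19 of 21 cases (median log2 ratio 0.27) and mitotic members in 13 of 22 (0.10), where 8109 of 14340 genes were higher (median 0.05). RRM2 was the 1 member past 1.5-fold, at 56.1 and 89.9 RPKM (ratio 1.60, interval 1.55 to 1.65), where 7.27% of genes were at least 1.5-fold higher and 4.46% lower. GINS1 was at 18.4 and 26.1 RPKM (1.42, 1.34 to 1.5) and CDC45 at 23.3 and 31.3 (1.35, 1.26 to 1.44). Below 1 in S phase were MCM3, at 179 and 136 RPKM (0.758, 0.74 to 0.776), and E2F2, at 19.9 and 19.3 (0.967, 0.916 to 1.02).

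MCM2 in KELLY was at 78.9 and 87.7 RPKM, MCM5 at 21.8 and 27.3, PCNA at 227 and 280, E2F1 at 82.8 and 87.7, and CCNE1 at 4.05 and 5.16. Of mitotic members CDK1, at 34.2 and 47.4 RPKM, had the highest ratio (1.38, 1.32 to 1.45) and KIF20A, at 36.1 and 29.9, the lowest (0.829, 0.789 to 0.871). FOXM1 was at 68.1 and 61.7 RPKM (0.906), AURKA at 36.8 and 33.6 (0.913), CCNB1 at 106 in both, MKI67 at 46.5 and 46.3 and TOP2A at 159 and 175. Polymerase, clamp loader and lagging strand genes were higher in 18 of 19 cases (median 0.24) and condensin subunits in 7 of 7 (0.18), while 11 of 12 histones were lower (-0.75). With median-ratio scaling the S phase and mitotic medians were 0.19 and 0.01.

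**Figure D5:**
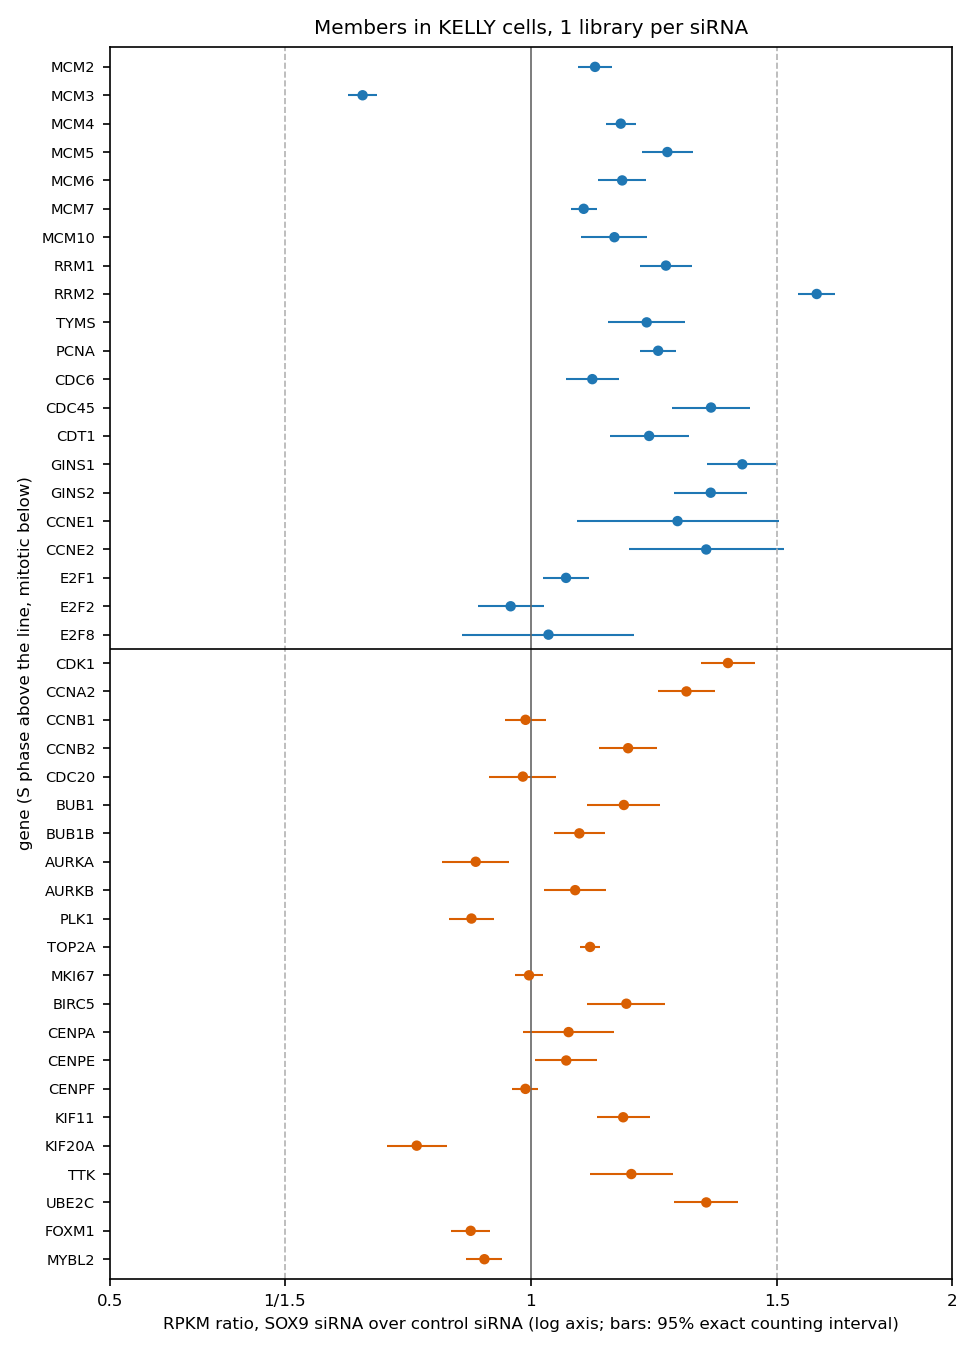
RPKM ratio of each member with SOX9 siRNA over control siRNA in KELLY cells, 1 library each, on a log axis; bars are exact 95% counting intervals and dashed lines mark 1.5-fold either way. S phase members (upper rows) lie mostly right of 1 with RRM2 past the dashed line, and mitotic members lie on both sides.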

How the data were processed

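The authors deposited RPKM per gene (reads scaled to gene length and to assigned reads) in 3 tables, for monolayers, spheres and KELLY cells. Reads were handled with TopHat, Subread and featureCounts on hg19, per the submitters' processing notes, with versions not given in the sources used here. RPKM times length gave whole reads for every value within a tolerance of 0.01. The largest deviation was kept for KELLY only, at 9.05e-08. Deposited sphere values were rescaled to each library's own read total, since most values of a library did not rest on its own total. Of the 63677 identifiers, 52181 matched a symbol.

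Groups came from the sample titles. Genes at RPKM 1 or above in 2 libraries were tested with limma 3.58.1 (R 4.3.3, empirical Bayes with trend) on log2(RPKM + 0.5), so fold changes of low genes are understated, 1 fit for all 15 monolayers and 1 for the 5 spheres. P-values were adjusted over all genes (Benjamini-Hochberg), with a threshold of 0.05. They measure only the spread between these libraries. Fits were also run on simulated counts with large known changes, the same dispersion for every gene and no batch effect. Those runs do not check the fits under the batch differences of these data. KELLY has 1 library a group and was given ratios with exact 95% intervals. Other settings were pseudocounts of 0.1 and 1, other filters, median-ratio scaling, voom on the recovered reads, the replicate block, and each library left out in turn. Arithmetic outside R used Python 3.11.15 and scipy 1.17.1.

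The titles name a batch, which served as the replicate block. Deviations from group means correlated within batch 1 (6 pairs, median r = 0.92) and batch 3 (1 pair, 0.81). In batch 2 the median was 0.06 over 33 pairs, against -0.09 over 53 pairs of different batches. Each sh004 group is 2 libraries of batch 2, whose deviations are equal and opposite, which draws both of these medians toward 0. Batch 2 pairs without an sh004 library ran from 0.72 to 0.87. Pairs of a batch 2 with a batch 3 library, again without sh004, were high too, from 0.54 to 0.74. Those of a batch 1 library with either ran from -0.92 to -0.73, so the correlations part batch 1 from the rest more than batch 2 from batch 3. Deviations within a group sum to 0, which ties these values to each other.

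The members, lists and tests were chosen with earlier results of these data known. Members called with or without the block were named, at most 6 per phase and comparison by size of change, or, where none was called, the 2 per phase with the smallest p, and 12 members (MCM2, MCM5, RRM2, PCNA, CCNE1, E2F1, CDK1, CCNB1, TOP2A, MKI67, AURKA and FOXM1) throughout. RRM1 at day 0 in sh004, MCM7 in sh003 spheres and the KELLY members beyond those 12 were named after their values were seen.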

Additional observations from a re-analysis of the deposited data

Results flagged for a closer look

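For some of the members given throughout, every library of a knockdown lay on one side of its control on a given monolayer day and every sphere library of it lay on the other side. The values are mean log2 differences of each knockdown library from the control of its batch, or from the 1 control sphere. The difference between cultures was not tested, and all sphere values share that 1 control library. The sh004 libraries of a monolayer day also share 1 control library. How many of all genes lay on opposite sides like this was not counted for either knockdown. Lying wholly on one side of the control sphere was common. In sh003 spheres 41.5% of all genes were lower without overlap and 40.5% higher, and in sh004 spheres 49.4% and 31.8%.

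With sh003, CDK1 was at -0.279 at day 0, -1.08 at day 7 and 0.354 in spheres. TOP2A was at -0.666, -1.23 and 0.748, and FOXM1 at -0.585, -0.967 and 0.257 in the same order. AURKA was at -0.576 at day 0 and 0.275 in spheres, MKI67 at -0.70 and 0.276. RRM2 was at -0.797 at day 7 and 0.189 in spheres. For AURKA and MKI67 the day 7 libraries, and for RRM2 the day 0 libraries, lay on both sides of their controls. Of all members, 14 mitotic and 0 S phase members parted in this way between day 0 and spheres, and 8 mitotic and 3 S phase members between day 7 and spheres.

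With sh004 these members were above control in monolayers and below it in spheres. RRM2 was at 0.431 at day 0, 0.138 at day 7 and -0.864 in spheres. CCNB1 was at 0.41, 0.838 and -0.671, and AURKA at 0.389, 0.757 and -0.762 in the same order. CDK1 was at 0.252 at day 0 and -0.573 in spheres, and FOXM1 at 0.138 at day 7 and -0.958 in spheres. CDK1 at day 7 and FOXM1 at day 0 lay on both sides of their controls. Of all members, 9 mitotic and 3 S phase members parted between day 0 and spheres, and 10 mitotic and 2 S phase members between day 7 and spheres.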

How the results depend on the processing

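The number of members called depended on the batch term and on single libraries. With the replicate block it was 12 in place of 0 for control cells at day 7, 36 in place of 8 for sh003 and 5 in place of 0 for sh004, and it changed no other count of called members. Without the 2 libraries with contradicting tags the counts were 1 (control), 19 (sh003) and 9 (sh003 against sh004 at day 7), and with the block 27 (control), 1 (sh004) and 16 (sh003 against sh004 at day 7). For sh003 the count without a block was 3 with no filter on low values and 0 in batch 2 alone. For sh004 with the block it was 2 with median-ratio scaling. In spheres, 0 of the 21 calls held with no filter or with RPKM as deposited, and as deposited the PLK1 difference was -0.27.

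With 1 library left out in turn, counts ran from 0 to 5 for control at day 7 (with the block 0 to 33), 0 to 24 for sh003 (10 to 41) and 0 to 14 for sh004 with the block. They ran from 0 to 10 for sh003 against control at day 7 with the block, 0 to 11 for sh003 against sh004 at day 7 (0 to 25) and 0 to 22 in spheres. The cause was not tested. Of 1398 values of single members under these settings 413 lost their call and 1 reversed. Of 998 medians 19 moved, by more than the spread between libraries or, in KELLY with 1 library per group, past a fixed cutoff. That spread (pooled SD within groups, log2) was 0.32 for S phase and 0.59 for mitotic members in monolayers, and 0.27 and 0.19 in spheres. A change of sign smaller than it was not counted as moved. Both medians of sh004 against control at day 0 changed sign in this way with the block. Batch-only fits, fits with the block left short of 1 library, and fits combining the block with another setting were chosen after seeing the data.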
